A study of Mus musculus with 2 samples.

Results

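Chemokines and their receptors were described here in cultured mouse dorsal root ganglia (DRGs). The members were all gene rows of the deposited matrices whose symbol starts with Ccl, Cxcl, Cx3cl, Xcl, Ccr, Cxcr, Cx3cr or Ackr followed by a digit, which gave 66 of 31053 rows. Of these, 44 were ligands (30 CC, 12 CXC, 1 CX3C and 1 XC) and 22 were receptors (11 CC, 6 CXC, 1 CX3C and 4 atypical). A unique molecular identifier (UMI, which counts 1 captured RNA molecule) was found for 44 members, 28 ligands and 16 receptors, and 33 members had 10 or more UMIs. The other 22 members had no UMI in any kept cell.

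The study cultured dissociated DRG cells to follow what happens to their glia in vitro. Ganglia of cervical, thoracic and lumbar levels were taken from 2-week-old SWISS mice, male and female, with no injury. The cells were plated on laminin and kept for 3 days, and then processed with the 10x Genomics Chromium 3' kit as libraries A and B. Both libraries had the same condition, so the comparisons were between cell classes within them. The sources do not say whether A and B came from separate animals or cultures, so every p-value measures only the spread between these 2 libraries.

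The limits set by the study, a minimum of 200 genes and a maximum of 10% of UMIs from mitochondrial genes, left 5066 cells in A with 39569977 UMIs and 5664 cells in B with 38295573 UMIs. The 2 libraries shared 7 barcode sequences among the kept cells. Clustering was done without the members and without the other genes tested here, and clusters were named from marker genes as fibroblast-like (173 and 216 cells in A and B), macrophage-like (37 and 46), neuron-like (436 and 375) and glia-like (4420 and 5027), called fibroblasts, macrophages, neurons and glia in what follows. Macrophages were few and held only 420713 and 480055 UMIs, so a single UMI weighs more there than in the other classes. Levels are given in CPM, the UMIs of a gene scaled to the same total in each class and library. A mitochondrial limit of 5% would have kept 14.2% of the glia and 35.3% of the neurons.

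Chemokines are small secreted proteins that direct the movement of cells, above all of leukocytes, through G protein-coupled receptors. They are grouped by the spacing of their first cysteines into CC, CXC, CX3C and XC types. Atypical receptors (Ackr) bind chemokines without coupling to G proteins and take them up or carry them. In ganglia, chemokines from glia, macrophages and injured neurons are known for calling in monocytes and for making sensory neurons more excitable.

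The members together made up 22428 UMIs. Ccl2, Cxcl10, Cxcl14 and Ccl11 held 14916 of them, 66.5%. The summed level of all members was 952 and 1145 CPM in fibroblasts (A, then B), 1096 and 1612 CPM in macrophages, 161 and 166 CPM in neurons and 253 and 250 CPM in glia. Fibroblasts and macrophages were thus the classes with the highest summed level in both libraries, and neurons had the lowest. The receptors made up 20.8 and 9.55 CPM of this in fibroblasts, 252 and 267 CPM in macrophages, 72.8 and 72.3 CPM in neurons and 12.4 and 11.1 CPM in glia. These CPM are of UMIs read at the 3' end, which count molecules and are not scaled by gene length.

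**Figure D1:**
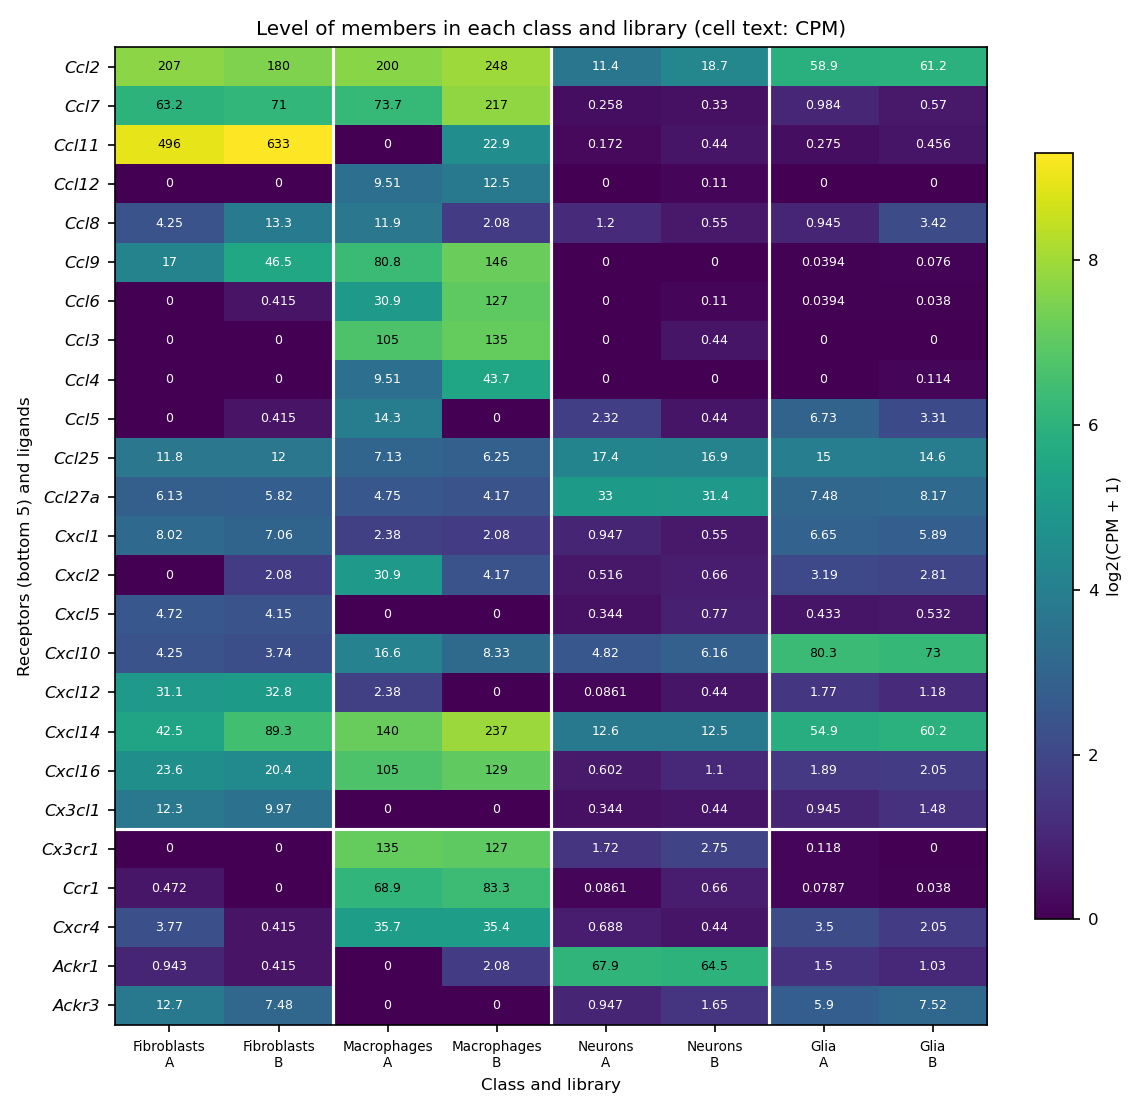
Level of 25 members in each class and library, as log2(CPM + 1) of the summed counts, with the CPM printed in each cell. Fibroblasts are marked by Ccl11 (496 and 633 CPM), macrophages by Ccl3, Cx3cr1 and Ccr1, neurons by Ackr1 (67.9 and 64.5 CPM) and glia by Cxcl10 (80.3 and 73.0 CPM).

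Several of these genes lie side by side in the genome. In mm10 coordinates, the 6 genes Ccl2, Ccl7, Ccl11, Ccl12, Ccl8 and Ccl1 lie on chromosome 11 between 82035571 and 82305690, and Ccl5, Ccl9, Ccl6, Ccl3 and Ccl4 lie on the same chromosome between 83525778 and 83664683. Neighbours were only partly high in the same classes. In the first group, Ccl2 and Ccl7 were both highest in fibroblasts and macrophages, though Ccl2 was found in all 4 classes. Ccl11 was high in fibroblasts, and Ccl12 had 11 UMIs, 10 of them in macrophages. In the second group, Ccl9, Ccl6, Ccl3 and Ccl4 were each highest in macrophages.

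The promoters of 4 members are printed here to show the sequence before each gene: Cxcl10 and Cxcl14, which were among the 3 highest members in glia, and Ccl9 and Ccl6, neighbours that were both high in macrophages (RefSeq, GRCm38.p6, 250 bases before to 50 bases after the annotated start). In the first pair, Cxcl10 and Cxcl14, capitals mark matches to a common form of the NF-kappaB motif (GGG, then 5 bases of any kind, then CC) and to the core of the interferon-stimulated response element (GAAA, then 2 bases of any kind, then GAAA), searched on both strands. In the second pair, Ccl9 and Ccl6, capitals mark the longest run of bases that the 2 windows share, 13 bases.
Cxcl10 promoter, chr5:92348840-92349139, minus strand: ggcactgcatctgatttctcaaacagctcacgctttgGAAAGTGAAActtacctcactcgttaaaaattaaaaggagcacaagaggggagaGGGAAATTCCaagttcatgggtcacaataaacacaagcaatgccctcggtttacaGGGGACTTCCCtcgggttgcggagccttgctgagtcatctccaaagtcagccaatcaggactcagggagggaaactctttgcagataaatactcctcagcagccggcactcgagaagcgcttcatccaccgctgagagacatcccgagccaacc
Cxcl14 promoter, chr13:56296502-56296801, minus strand: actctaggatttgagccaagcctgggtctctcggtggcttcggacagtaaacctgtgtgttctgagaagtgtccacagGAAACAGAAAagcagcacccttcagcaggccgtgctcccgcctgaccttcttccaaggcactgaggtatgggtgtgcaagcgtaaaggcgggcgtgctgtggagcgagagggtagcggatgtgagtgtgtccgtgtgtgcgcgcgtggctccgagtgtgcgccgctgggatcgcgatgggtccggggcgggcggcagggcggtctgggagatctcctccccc
Ccl9 promoter, chr11:83578587-83578886, minus strand: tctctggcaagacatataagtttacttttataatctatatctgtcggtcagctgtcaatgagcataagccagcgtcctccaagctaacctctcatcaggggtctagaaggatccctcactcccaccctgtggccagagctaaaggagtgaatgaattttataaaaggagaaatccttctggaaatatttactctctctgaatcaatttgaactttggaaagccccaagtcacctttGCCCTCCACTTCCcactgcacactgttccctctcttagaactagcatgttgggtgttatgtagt
Ccl6 promoter, chr11:83593038-83593337, minus strand: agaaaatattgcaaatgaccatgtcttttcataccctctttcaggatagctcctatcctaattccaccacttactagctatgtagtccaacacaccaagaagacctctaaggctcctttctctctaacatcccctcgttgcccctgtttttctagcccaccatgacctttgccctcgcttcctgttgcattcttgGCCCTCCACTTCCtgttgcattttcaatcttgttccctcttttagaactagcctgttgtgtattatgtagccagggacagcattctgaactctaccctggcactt
The Cxcl10 window held 3 matches to the NF-kappaB motif, of which 2 overlap, and 1 match to the interferon motif. The Cxcl14 window held 1 match to the interferon motif and none to the other. Of the 32851 promoters of this length that were searched, 50.8% held the NF-kappaB motif and 3.44% held the interferon motif. The first is thus common by its letters alone. Among the 33 members with 10 or more UMIs, 22 had a promoter in the table used. Of these, 11 held the NF-kappaB motif and 2 held the interferon motif in any of their listed promoters. The members were counted by gene and the percentages by promoter, so the units differ. A match is a description of the letters and not of binding.

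Fibroblasts were compared with glia first. Of the 25 members with enough counts to test, 11 were higher in fibroblasts, 2 were lower and 12 did not pass (edgeR quasi-likelihood test on summed UMIs with library as a block, Benjamini-Hochberg adjusted p under 0.05 over 13791 genes). Over all genes tested, 25.0% were higher and 30.9% were lower, 55.8% in all, so the classes differ in much of what they express. The median log2 fold change of the members was 0.51, against -0.14 over all genes. All classes held some RNA of the others' markers, and in fibroblasts the 10 glial markers summed to 365 and 441 CPM, against 5924 and 5825 CPM in glia.

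Ccl11, known as eotaxin and an attractant of eosinophils through Ccr3, was the leading member of fibroblasts. Its level was 496 and 633 CPM in fibroblasts, against 0.275 and 0.456 CPM in glia, and it was 0 and 22.9 CPM in macrophages and 0.172 and 0.440 CPM in neurons. The fibroblast values stood far above those of every other class, with a log2 fold change over glia of 10.78 ± 0.14 (SE, adjusted p = 1.14e-29). After each cell was thinned to 2000 UMIs, 42.1% and 48.6% of fibroblasts had a Ccl11 UMI (exact 95% intervals 34.6 to 49.9% and 41.7 to 55.5%), against 0.0229% and 0.0408% of glia. These intervals and all others given cover counting error only. Thinning left out 6 fibroblasts, 42 neurons and 181 glia with fewer UMIs, and without thinning the mean share was 62.2%.

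Ccl2 and Ccl7 attract monocytes through Ccr2. Ccl2 was 207 and 180 CPM in fibroblasts and 58.9 and 61.2 CPM in glia. The groups did not overlap, and the log2 fold change was 1.92 ± 0.10 (adjusted p = 6.52e-16). Ccl7 was 63.2 and 71.0 CPM in fibroblasts, against 0.984 and 0.570 CPM in glia, a log2 fold change of 6.66 ± 0.27 (adjusted p = 1.85e-18). Glia thus had Ccl2 with little of its neighbour Ccl7, while fibroblasts had both. Ccl9, a ligand of Ccr1 in the mouse, was 17.0 and 46.5 CPM in fibroblasts and had 3 UMIs in all glia, a ratio of 564 (95% counting interval 189 to 2764). Ccl8, a ligand of Ccr8 in the mouse, was 4.25 and 13.3 CPM in fibroblasts, against 0.945 and 3.42 CPM in glia (log2 fold change 2.27 ± 0.44, adjusted p = 7.17e-05).

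Among the other ligands of fibroblasts was Cxcl12, which retains cells in tissues through Cxcr4, at 31.1 and 32.8 CPM, against 1.77 and 1.18 CPM in glia (log2 fold change 4.68 ± 0.26, adjusted p = 2.57e-15). Cxcl16 and Cx3cl1 are made as membrane proteins and can be shed. Cxcl16 was 23.6 and 20.4 CPM in fibroblasts, against 1.89 and 2.05 CPM in glia, and Cx3cl1 was 12.3 and 9.97 CPM, against 0.945 and 1.48 CPM. Both were higher in fibroblasts, with log2 fold changes of 3.70 ± 0.25 and 3.41 ± 0.37. Cxcl5, an attractant of neutrophils, was 4.72 and 4.15 CPM in fibroblasts, against 0.433 and 0.532 CPM in glia, and was also higher. Ackr3, which takes up Cxcl12, was 12.7 and 7.48 CPM in fibroblasts, against 5.90 and 7.52 CPM in glia. The groups overlapped, since the fibroblasts of B were under the glia of B, and the fold change was small (log2 fold change 0.80 ± 0.29, adjusted p = 0.0190).

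Cxcl14, a chemokine of epithelia whose receptor is not settled, was 42.5 and 89.3 CPM in fibroblasts, against 54.9 and 60.2 CPM in glia. The groups overlapped, since the fibroblasts of A were under both glial values, and the call (log2 fold change 0.45 ± 0.15, adjusted p = 0.0107) was lost with DESeq2 (adjusted p = 0.174). The Cxcl14 UMIs of fibroblasts came from only 18 cells in A and 22 cells in B. Cxcl10 and Ccl5 were the members that were lower in fibroblasts. Cxcl10, an attractant of T cells through Cxcr3 that interferons induce, was 4.25 and 3.74 CPM in fibroblasts, against 80.3 and 73.0 CPM in glia (log2 fold change -4.02 ± 0.22, adjusted p = 1.68e-15). Ccl5, a ligand of Ccr1, had 1 UMI in fibroblasts and 258 UMIs in glia, a ratio of 0.0443 (95% counting interval 0.00112 to 0.249), and 107 of the glial UMIs came from 1 barcode described with the glial clusters.

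Macrophages had more members higher than glia than fibroblasts or neurons had, though fewer members were detected in them (26, against 29 in fibroblasts, 35 in neurons and 33 in glia). Of the same 25 members, 14 were higher in macrophages than in glia, 2 were lower and 9 did not pass, against 12.1% higher and 21.8% lower, 33.9% in all, over all genes. The median log2 fold change of the members was 2.06, against -0.42 over all genes. Among the 6 receptors tested, 4 were higher. Against fibroblasts, 13 members were higher in macrophages and 4 were lower, where 10.9% and 16.0% of all genes were, 26.9% together.

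The receptors were those known from tissue macrophages. Cx3cr1, the receptor of Cx3cl1, was 135 and 127 CPM in macrophages, against 3 UMIs in all glia and none in fibroblasts, a ratio over glia of 2259 (95% counting interval 754 to 11109). Ccr1 was 68.9 and 83.3 CPM in macrophages, against 3 UMIs in glia. Cxcr4 was 35.7 and 35.4 CPM in macrophages, against 3.50 and 2.05 CPM in glia (log2 fold change 3.84 ± 0.44, adjusted p = 4.48e-08), and 3.77 and 0.415 CPM in fibroblasts. In each of these, both macrophage values lay above every value of the other classes. Ackr3 differed from them, with no UMI in macrophages, at least 2.02-fold lower than in glia (3 counts over the group).

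Ccl3 and Ccl4, the macrophage inflammatory proteins, were found mainly in macrophages. Ccl3 was 105 and 135 CPM in macrophages, with no UMI in glia or fibroblasts and 4 UMIs in neurons, at least 2086-fold higher than in glia. Ccl4 was 9.51 and 43.7 CPM in macrophages, against 3 UMIs in glia, and none in fibroblasts or neurons. The call of Ccl4 over glia was lost with DESeq2 (adjusted p = 0.113). Ccl9 was 80.8 and 146 CPM in macrophages and Ccl6 was 30.9 and 127 CPM, with 3 and 2 UMIs in glia. The 2 libraries differed more for Ccl6 and Ccl4 than for the receptors, with 37 and 46 macrophages behind the values.

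Other ligands of macrophages were shared with fibroblasts. Ccl2 was 200 and 248 CPM in macrophages, 207 and 180 CPM in fibroblasts and 58.9 and 61.2 CPM in glia. The macrophage and fibroblast values overlapped, with a ratio of 1.17 (95% counting interval 0.999 to 1.36) and a log2 fold change of 0.14 ± 0.16 (adjusted p = 0.598), while macrophages were above glia (log2 fold change 2.06 ± 0.17, adjusted p = 9.87e-11). Ccl7 was 73.7 and 217 CPM in macrophages, above the 63.2 and 71.0 CPM of fibroblasts (log2 fold change 1.06 ± 0.24, adjusted p = 9.50e-04, and 0.157 with DESeq2). Cxcl16 was 105 and 129 CPM in macrophages, against 23.6 and 20.4 CPM in fibroblasts, a log2 fold change of 2.34 ± 0.24 (adjusted p = 5.25e-09). Cxcl14 was 140 and 237 CPM in macrophages, higher than in glia (log2 fold change 1.88 ± 0.20, adjusted p = 1.56e-08) and higher than in fibroblasts (1.43 ± 0.22, adjusted p = 8.06e-06).

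Cxcl2, an attractant of neutrophils, was 30.9 and 4.17 CPM in macrophages, against 3.19 and 2.81 CPM in glia, and passed (log2 fold change 2.62 ± 0.64, adjusted p = 0.00186) on 15 UMIs. Cxcl10 was 16.6 and 8.33 CPM in macrophages, lower than the 80.3 and 73.0 CPM of glia (log2 fold change -2.49 ± 0.33, adjusted p = 6.30e-07). All 10 glial markers were found in macrophages, with a summed level of 1604 and 894 CPM, against 5924 and 5825 CPM in glia, and over the markers the level in macrophages was a median of 20.5% of that in glia (range 17.3 to 34.4%). The Cxcl10 level in macrophages was 16.3% of that in glia, just under that range. What part glial RNA had in it was not tested.

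Ccl11 was lower in macrophages than in fibroblasts (log2 fold change -5.62 ± 0.25, adjusted p = 1.29e-16). It had 11 UMIs in macrophages, all in library B, while 7 of 8 fibroblast markers (all but Pdgfra) were found at a summed 1911 CPM in the macrophages of A and 533 CPM in those of B, against 25439 and 22784 CPM in fibroblasts. Ccl11 was higher in macrophages than in glia (log2 fold change 5.16 ± 0.85, adjusted p = 1.83e-05), but when the cells with the highest Scrublet doublet scores were removed it was -4.86 (adjusted p = 0.701). Cxcl12 had 1 UMI in macrophages and 145 UMIs in fibroblasts, a ratio of 0.0347 (95% counting interval 8.72e-04 to 0.196). Cx3cl1 and Ackr3 had none in macrophages and were at least 3.32-fold and 2.98-fold lower than in fibroblasts.

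**Figure D2:**
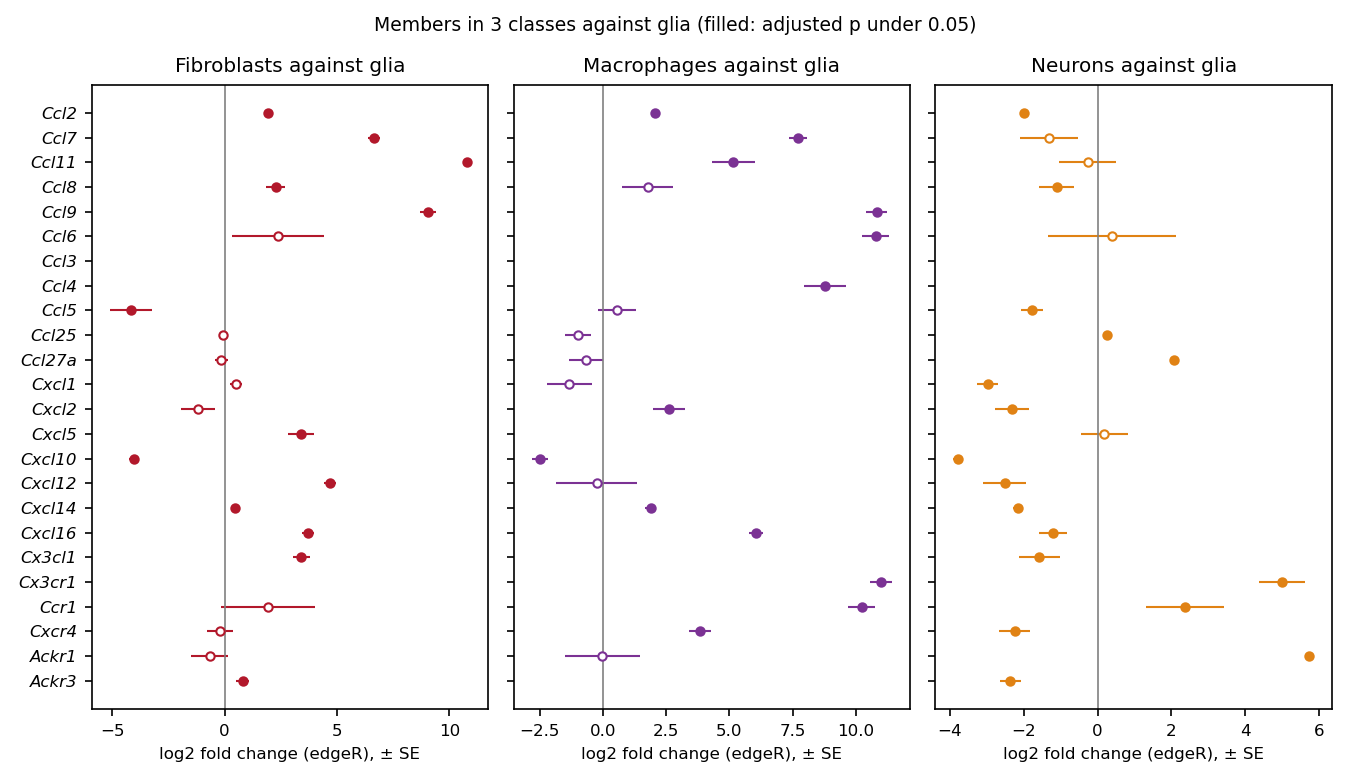
Fitted log2 fold change (± SE, edgeR) of 24 tested members in fibroblasts, macrophages and neurons against glia, with filled points at an adjusted p under 0.05. A member with no UMI in 1 of the 2 classes is not drawn, as for Ccl3, and the x axes differ between panels. Most macrophage points lie right of 0 and most neuron points lie left of it, where 14 and 6 members were higher.

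Neurons had the lowest summed level of ligands. Against glia, 6 members were higher in neurons, 12 were lower and 7 did not pass, where 40.9% of all genes were higher and 42.9% were lower, 83.8% in all, so a call in this comparison is common. The median log2 fold change of the members was -1.31, against -0.04 over all genes. The lower members were Cxcl10, Cxcl1, Cxcl12, Ackr3, Cxcl2, Cxcr4, Cxcl14, Ccl2, Ccl5, Cx3cl1, Cxcl16 and Ccl8. Cxcl10 was 4.82 and 6.16 CPM in neurons, against 80.3 and 73.0 CPM in glia (log2 fold change -3.79 ± 0.11, adjusted p = 2.15e-22). Ccl2 was 11.4 and 18.7 CPM in neurons, against 58.9 and 61.2 CPM in glia (-1.99 ± 0.12, adjusted p = 2.14e-15), and Cxcl14 was 12.6 and 12.5 CPM, against 54.9 and 60.2 CPM (-2.15 ± 0.13, adjusted p = 1.11e-14). Over these 12 members the level in neurons was a median of 21.1% of that in glia (range 7.16 to 43.2%), and over the 10 glial markers, all found in neurons at a summed 687 and 712 CPM, it was 11.2% (range 7.06 to 95.7%). For Ccl5, 17 of the 27 UMIs in the neurons of A lay in 1 cell. It was 2.32 CPM in the neurons of A, against 6.73 CPM in the glia of A and 2.52 CPM in those glia without 1 barcode that held few glial markers. What part glial RNA had in the neuronal levels was not tested.

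Ackr1, which binds many inflammatory chemokines without signalling and is known from red blood cells and venules, was the leading member of neurons. Its level was 67.9 and 64.5 CPM in neurons, against 38 and 27 UMIs in all glia of A and B (log2 fold change 5.74 ± 0.13, adjusted p = 2.26e-25), 0.943 and 0.415 CPM in fibroblasts and 0 and 2.08 CPM in macrophages. Both neuronal values lay far above those of the other classes. After thinning, 10.6% and 11.6% of neurons had an Ackr1 UMI (exact 95% intervals 7.81 to 14.0% and 8.44 to 15.4%), against 0.343% and 0.245% of glia.

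The counts of Ackr1 are uncertain, because the gene (ENSMUSG00000037872, chromosome 1 from 173331886 to 173333750, minus strand, mm10) overlaps Cadm3, an adhesion molecule of neurons, on the same strand. Cadm3 was 114 and 113 CPM in neurons, against 5.90 and 6.08 CPM in glia. For each Cadm3 UMI there were 0.595 and 0.569 Ackr1 UMIs in neurons, against 0.253 and 0.169 in glia. In 4 clusters of neurons the levels ran in the same order: the 88 cells of the cluster led by Penk and Crh had 114 and 110 CPM of Ackr1 with 168 and 178 CPM of Cadm3, and the 76 cells of the cluster led by Dgkh had 25.0 and 18.6 CPM with 49.4 and 43.7 CPM. Among neurons with an Ackr1 UMI, 93.4% and 90.6% had a Cadm3 UMI, against 62.0% and 58.5% of those without, at median depths of 30336 and 29832 UMIs, against 24657 and 18971 UMIs. What part Cadm3 transcripts had in the Ackr1 counts was not tested.

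The ligands that were higher in neurons were Ccl27a, Ccl25 and, on 4 UMIs, Ccl3. Ccl27a, the skin chemokine that binds Ccr10, was 33.0 and 31.4 CPM in neurons, against 7.48 and 8.17 CPM in glia (log2 fold change 2.08 ± 0.10, adjusted p = 3.28e-17). It overlaps Il11ra1 on the opposite strand and has near-identical copies in the genome, so its counts are uncertain too. Ccr10 itself had 29 UMIs, 21 of them in neurons. Ccl25, which binds Ccr9, was 17.4 and 16.9 CPM in neurons, against 15.0 and 14.6 CPM in glia, a small difference (0.25 ± 0.10, adjusted p = 0.0265). Ccl21a, a ligand of Ccr7 with near-identical copies, had 22 UMIs, of which 21 lay in the cluster of 412 neurons led by Scg2 and Calca.

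Cx3cr1, Ccr1 and Ccl3 were also higher in neurons than in glia, on 45, 7 and 4 UMIs. The Cx3cr1 UMIs lay in 18 of 811 neurons. Of these 18, 4 held 5 or more UMIs of macrophage markers and 12 of the 45 UMIs. Only 3 of the 18 held no macrophage marker UMI, against 383 of all 811 neurons. Cx3cr1 also overlaps Csrnp1, Gorasp1 and Xirp1 on the same strand. What part these genes or macrophage RNA had in its counts was not tested. All 10 macrophage markers were found in neurons, at a summed 40.8 and 140 CPM, against 8 of 10 in glia (Csf1r and Adgre1 at 0), at 7.24 and 8.93 CPM. Aif1 alone was 31.5 CPM in neurons by the mean of the libraries, 21.0% of its macrophage level, where the median marker was at 0.225%. In B, 1 neuron held 486 macrophage marker UMIs and 8 of the 25 Cx3cr1 UMIs. In A, 1 neuron held 6 of the 20 Cx3cr1 UMIs and 1 macrophage marker UMI. Without the 22 neurons and 9 glia that held 5 or more such UMIs, a setting chosen after seeing the data, the calls of Ccr1 (adjusted p = 0.262) and Ccl3 (adjusted p = 0.192) were lost and that of Cx3cr1 was kept.

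In glia, the ligands were led by Cxcl10 at 80.3 and 73.0 CPM, Ccl2 at 58.9 and 61.2 CPM and Cxcl14 at 54.9 and 60.2 CPM. Cxcl10 was the member that was lower in each of fibroblasts, macrophages and neurons. After thinning, 9.62% and 9.14% of glia had a Cxcl10 UMI (exact 95% intervals 8.76 to 10.5% and 8.35 to 9.99%), against 0.585% and 0.472% of fibroblasts. Cxcl14 was found in 9.23% and 9.63% of glia and Ccl2 in 4.85% and 5.10%. Ccl2 was thus found in fewer glia than Cxcl10 or Cxcl14, at a similar summed level.

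**Figure D3:**
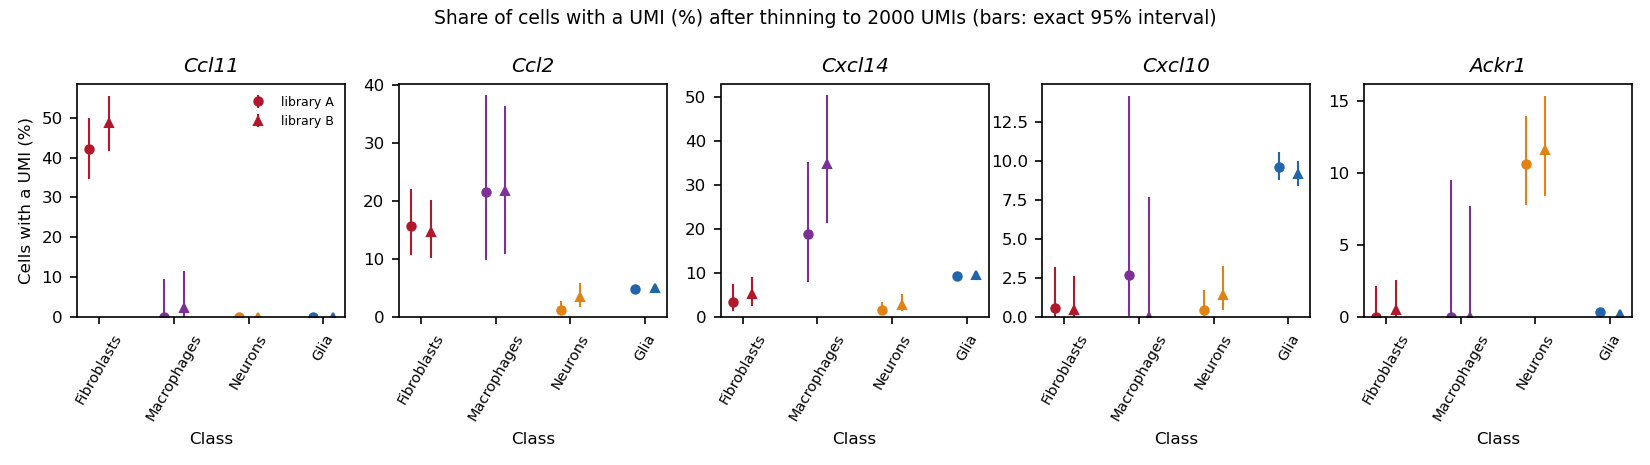
Percent of cells with a UMI of each of 5 members after thinning every cell to 2000 UMIs, by class and library, with exact 95% intervals that cover counting error. Ccl11 was found in 42.1% and 48.6% of fibroblasts, Cxcl10 in 9.62% and 9.14% of glia and Ackr1 in 10.6% and 11.6% of neurons. The y axes differ between panels.

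The UMIs of these members were spread unevenly over cells. In glia, the 5% of cells with the most Ccl2 held 89.5% and 86.9% of its UMIs, and 1 cell of A held 69. The same share of cells held 61.2% and 61.4% of the Cxcl10 UMIs and 57.2% and 57.0% of the Cxcl14 UMIs. Ccl2 in glia was therefore the most concentrated of the 3. In fibroblasts, the 5% of cells with the most Ccl11 held 31.5% and 22.2% of its UMIs, and for Ccl2 this was 59.4% and 56.9%, with 98 of the 438 Ccl2 UMIs of A in 1 cell. For Ackr1 in neurons this was 22.7% and 22.0%, under the Ccl11 value of fibroblasts in A and close to it in B. These shares were taken without thinning, at a median depth of 28331 UMIs in neurons and 11510 UMIs in fibroblasts. Such a share depends on depth, so it does not rank the classes.

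**Figure D4:**
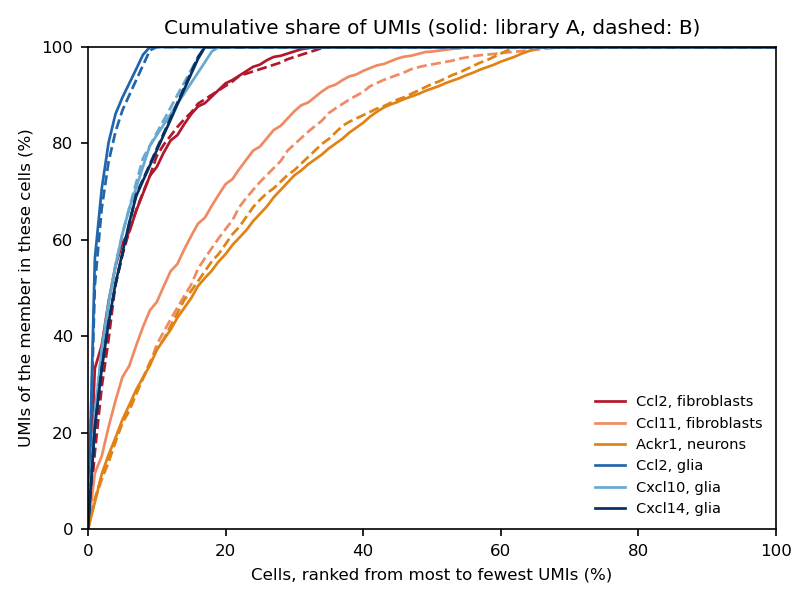
Cumulative percent of a member's UMIs against the percent of cells of the class, ranked from the cells with most UMIs, for library A (solid) and B (dashed). Ccl2 of glia reached 89.5% and 86.9% within the first 5% of cells, and Ackr1 of neurons 22.7% and 22.0%. Counts were not thinned, and the classes differ in depth.

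Members were found together in some cells more often than in others. After thinning, Ccl2 was found in 14.8% and 17.9% of glia with a Cxcl10 UMI, against 3.80% and 3.82% of glia without, at median depths of 5474 and 5024 UMIs, against 4888 and 4552 UMIs. Without thinning the share was higher among Cxcl10 cells in 12 of 12 pairs of glial cluster and library. Depth was not matched within these pairs, which came from the same 2 libraries, and its part in the difference was not tested. Of the glia with a Cxcl2 UMI, 12 of 14 in A and 14 of 16 in B had Ccl2, and of those with Ccl5, 6 of 10 and 10 of 13 did. Cxcl14 went its own way: it was found in 8.02% and 9.20% of glia with Ccl2, against 9.29% and 9.66% of glia without. In fibroblasts, Ccl11 was found in 84.2% and 52.6% of cells with Ccl7, against 36.8% and 48.2% of those without, and in 2 of 14 and 3 of 10 cells with Cxcl12, against 44.6% and 49.5% of those without. These shares are descriptions, and cells of a library are not replicates.

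Glia were then divided into 6 clusters, again without the members, to ask whether the levels differed between glial states. The clusters were drawn from the same 2 libraries. Cluster 0 (2687 cells) was led by Ccnd2, Apoe and Ndrg2 and had the most of the satellite glial genes, a summed 13603 and 13180 CPM. Cluster 1 (1995 cells) was led by Tgfbi, Igfbp5 and Atf3 and had 1944 and 1960 CPM of the satellite glial genes. Clusters 2 (1540 cells, histone genes), 3 (1247 cells, Ung and Mcm genes), 4 (1049 cells, Ccnb1 and Cdc20) and 5 (929 cells, Fxyd6 and Apod) were led by or held genes of dividing cells.

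Each cluster was tested against the mean of the other 5. Of 13 members with enough counts, 12 passed in at least 1 cluster, beside 84.9% of all 11610 genes, so passing in some cluster is not a mark of the members. In cluster 1, 9 members were higher and 3 were lower, where 24.3% and 23.9% of all genes were, 48.2% in all. Ccl5, Ccl8 and Cxcl2 had most of their glial UMIs in cluster 1, which counted toward the filter on low counts. With no filter, 10 of 33 members were higher there and 3 were lower. In cluster 0, 3 were higher and 2 were lower (27.5% and 29.1% of all genes, 56.6% in all). In cluster 2 there were 1 and 4 (28.5% and 22.7%, 51.2% in all), and in cluster 3 there were 6 and 0 (15.7% and 10.2%, 25.9% in all). Cluster 4 had 2 and 5 (22.8% and 17.7%, 40.5% in all), and cluster 5 had 6 and 2 (24.5% and 21.3%, 45.9% in all). Ligands made up the higher members of cluster 1, and the 2 receptors tested, Ackr3 and Cxcr4, were lower there.

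The summed level of all members was 546 and 456 CPM in cluster 1, against 137 to 333 CPM in the other clusters. Ccl2 was 166 and 129 CPM in cluster 1, against 9.42 to 86.9 CPM in the others (log2 fold change 1.93 ± 0.07, adjusted p = 2.06e-46). Cxcl14 was 168 and 152 CPM there, against 10.0 to 101 CPM in the others (2.39 ± 0.06, adjusted p = 5.86e-60). Both members were above every other cluster in both libraries. The macrophage markers were also highest in cluster 1, where 8 of 10 were found (Csf1r and Adgre1 at 0) at a summed 11.8 and 15.5 CPM, against 2.51 to 10.4 CPM in the other clusters, and their part in the member levels was not tested. Cluster 1 held 883 of the 4420 glia of A and 1112 of the 5027 glia of B, and it held 41.3% and 35.1% of the glial Ccl2 UMIs and 44.9% and 41.9% of the Cxcl14 UMIs.

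Cxcl10 was divided otherwise. It was 31.3 and 27.4 CPM in cluster 0, against 102 and 87.9 CPM in cluster 1, 125 and 111 CPM in cluster 3 and 125 and 109 CPM in cluster 5, with clusters 2 and 4 between them at 65.9 to 73.2 CPM. Cluster 0 was below every other cluster in both libraries (log2 fold change -1.67 ± 0.07, adjusted p = 2.29e-41). Clusters 3 and 5 did not differ beyond the spread of their libraries. Ccl2 and Cxcl14 were lowest in cluster 4, at 9.42 and 21.5 CPM for Ccl2 and 10.0 and 12.9 CPM for Cxcl14, and the Cxcl14 values of cluster 2 (12.8 and 15.7 CPM) lay next to them.

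Smaller members of cluster 1 were Ccl8, at 3.75 and 17.1 CPM, against 0.292 to 1.18 CPM in the others (log2 fold change 4.23 ± 0.32, adjusted p = 5.43e-23), and Cxcl2, at 11.3 and 12.1 CPM, against 0 to 5.03 CPM (4.19 ± 0.33, adjusted p = 6.78e-22). In library B, 1 cell held 23 of the 90 glial Ccl8 UMIs and another held 22. Cxcl16 and Cxcl1 were also higher in cluster 1, with log2 fold changes of 1.72 and 0.98. Ackr3 had the reverse order, at 1.88 and 3.65 CPM in cluster 1, against 8.41 and 10.6 CPM in cluster 0 and 10.0 and 12.7 CPM in cluster 4 (cluster 1 log2 fold change -1.19 ± 0.28, adjusted p = 2.06e-04). Ccl27a was lower in cluster 1 as well (-1.17 ± 0.26, adjusted p = 6.05e-05). With a mitochondrial limit of 5%, which left 1342 glia, 3 of the 6 members still tested were higher in cluster 1 and none was lower (edgeR), and 4 members passed in at least 1 cluster.

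Ccl5 was 39.4 and 14.6 CPM in cluster 1, against 0 to 5.03 CPM in the others (log2 fold change 6.02 ± 0.29, adjusted p = 1.21e-37). One barcode of library A in cluster 1 held 107 of the 171 Ccl5 UMIs of the glia of A, 10 of the 48 Cxcl16 UMIs and all 25 Ccr7 UMIs of the series. It held 1 UMI of the glial markers, where the median glial cell of A held 30, and 10 UMIs of the macrophage markers, with 9 UMIs of Cd74, 4 of Fscn1, 1 of Flt3 and none of Lyz2. Without it, Ccl5 was 10.7 CPM in cluster 1 of A and 2.52 CPM in the glia of A. When all cells with 1 or no UMI of the markers of their own class were removed, a setting chosen after seeing the data, Ccl5 stayed higher in cluster 1 (log2 fold change 4.86, adjusted p = 7.17e-22), and so did Cxcl16 (1.11, adjusted p = 0.0162).

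**Figure D5:**
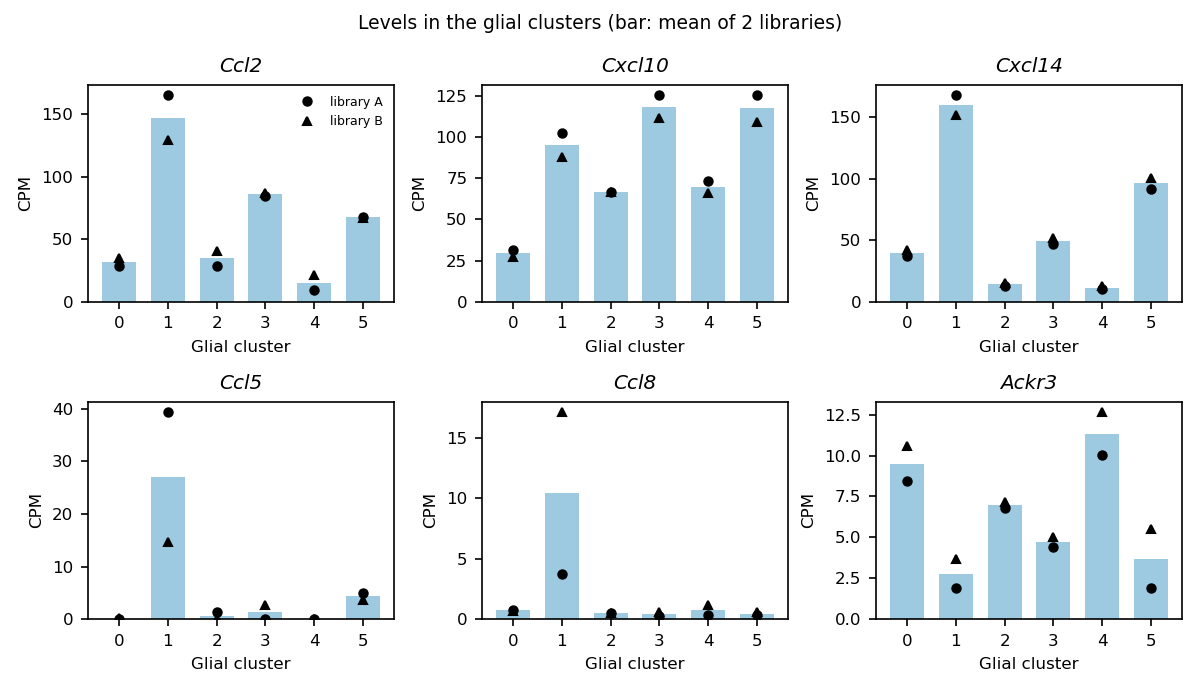
Level of 6 members in the 6 glial clusters in CPM, with a bar for the mean of 2 libraries and a point for each library. Ccl2 and Cxcl14 were highest in cluster 1 (166 and 129 CPM, 168 and 152 CPM), Cxcl10 was lowest in cluster 0, and Ackr3 was low in cluster 1. The y axes differ between panels.

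The ligands and the receptors known to bind them were set side by side. Several ligands with many UMIs had almost no counts of a receptor: Ccr2, which binds Ccl2 and Ccl7, had 1 UMI, Cxcr3 (Cxcl10) had 2, Cxcr6 (Cxcl16) had 2 and Ccr9 (Ccl25) had 1. Ccr3 (Ccl11) and Ccr8 (Ccl8) were found in 0 of 10730 cells, which allows a share of cells with a UMI of up to 0.0280%. This limit is over all classes together, most of them glia, and does not hold for a small class such as macrophages. At this depth these receptors had few or no UMIs, which does not show that they are absent. Receptors that were found were Ackr3 with 419 UMIs and Cxcr4 with 196 UMIs (both bind Cxcl12), Cx3cr1 with 166 UMIs (Cx3cl1), and Ccr1 with 80 UMIs (Ccl3 and Ccl5). Ccr10 (Ccl27a) had 29 UMIs and Cxcr2 (Cxcl1 and Cxcl2) had 16 UMIs over all classes. The pairs whose receptor had more than 16 UMIs were set side by class. Ligand and receptor led in different classes for Cx3cl1 (fibroblasts) and Cx3cr1 (macrophages) and for Cxcl12 (fibroblasts) and Cxcr4 (macrophages). They led in the same class for Ccl3 with Ccr1 (macrophages). By the mean of the libraries this also held for Cxcl12 with Ackr3 (fibroblasts) and Ccl27a with Ccr10 (neurons). For both of these receptors, however, the leading class differed between the libraries. Ackr3 was 12.7 and 7.48 CPM in fibroblasts, against 5.90 and 7.52 CPM in glia. Ccr10 was 0.861 and 1.21 CPM in neurons, against 1.42 and 0.415 CPM in fibroblasts.

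Other genes of chemokine binding and signalling were counted from a list of 34 genes, of which 28 were tested. In fibroblasts against glia 9 were higher and 8 lower, in macrophages against glia 13 and 7, and in neurons against glia 11 and 10. Over all genes these shares were 25.0% and 30.9%, 12.1% and 21.8%, and 40.9% and 42.9%, so the counts in neurons were near the background. Pf4, a platelet chemokine that the name rule left out, was 1008 and 1377 CPM in macrophages, against 0.157 and 0.418 CPM in glia (log2 fold change 12.12 ± 0.16, adjusted p = 2.42e-28), and so was above every member there. Rac2 and Dock2, which move leukocytes toward chemokines, were higher in macrophages too, at 166 and 202 CPM for Rac2 and 66.6 and 70.8 CPM for Dock2. Arrb1, an arrestin that takes up receptors, was 196 and 191 CPM in neurons, against 11.4 and 10.8 CPM in glia (4.15 ± 0.07, adjusted p = 1.77e-27). Rarres2, the ligand of Cmklr1, was 63.7 and 63.1 CPM in fibroblasts, against 695 and 678 CPM in glia, while Cmklr1 was 23.6 and 22.4 CPM in fibroblasts, against 0.630 and 0.380 CPM in glia. That ligand was thus lower in fibroblasts and its receptor higher, with log2 fold changes of -3.19 ± 0.08 and 5.72 ± 0.34.

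Of 29 genes listed for inflammatory signalling, 25 were tested. The list mixed cytokines, receptors, transcription factors and inhibitors of NF-kappaB such as Nfkbia, so its counts have no single direction. Against glia, 10 were higher and 11 lower in fibroblasts, 7 and 8 in macrophages, and 5 and 17 in neurons, where 25.0% and 30.9%, 12.1% and 21.8%, and 40.9% and 42.9% of all genes were. A call in neurons against glia was made for 83.8% of all genes. Il33, an alarmin of the interleukin family, was 647 and 827 CPM in fibroblasts, against 0.551 and 0.760 CPM in glia (10.35 ± 0.15, adjusted p = 1.31e-28). Tlr2 and Tnfrsf1b were higher in macrophages, at 33.3 and 29.2 CPM for Tlr2 and 26.1 and 39.6 CPM for Tnfrsf1b. Nfkb2, a subunit of NF-kappaB, was 1.81 and 2.42 CPM in neurons, against 21.2 and 20.3 CPM in glia (-3.28 ± 0.17, adjusted p = 1.26e-16), and Fos was 62.2 and 71.4 CPM in neurons, against 606 and 594 CPM in glia (-3.14 ± 0.07, adjusted p = 3.84e-25).

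The scaling moved the comparisons as a whole. With the size factors of DESeq2, the median log2 fold change over all genes was 0.05 in fibroblasts, -0.02 in macrophages and 0.15 in neurons against glia, in place of -0.14, -0.42 and -0.04. The share of all calls that were higher was 57.7%, 59.9% and 55.8%, in place of 44.7%, 35.8% and 48.7%, and 50.7% in place of 40.4% for macrophages against fibroblasts. With no gene held out of the clustering it was 54.5%, 51.2% and 58.1% against glia, and without the cells that had 1 or no UMI of their own class markers 54.6%, 51.2% and 58.2%. The counts of members under DESeq2 were 9 higher and 2 lower in fibroblasts, 13 and 1 in macrophages and 5 and 9 in neurons. Among called members at 20 CPM or more in a class, none changed direction under it.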

How the data were processed

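What the authors deposited are UMI counts, not normalised, for each gene in each barcode of 2 libraries, A and B, read with Cell Ranger (3.0.2 in the submitters' processing notes, 3.1.0 in the matrix header) against mm10, and the study used Seurat 3. The 5175 and 5773 barcodes hold 40355401 and 38945848 UMIs. The study's limits of 200 genes and 10% mitochondrial UMIs left 10730 of 10948 cells, more than the study kept. Cells were clustered with Seurat 5.3.0 (2000 variable genes less 129 held-out genes, 20 dimensions, resolution 0.18; glia again on their own, neurons at resolution 0.5) and named after the marker list highest in each cluster. Scrublet (scanpy 1.11.5) called 5 doublets, too few to have worked, so none was removed.

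UMIs were summed per library and class or glial cluster and fitted in edgeR 4.0.16 by quasi-likelihood after filterByExpr and TMM scaling, with a term for the library (8 sums with 3 residual degrees of freedom for classes, 12 sums with 5 for glial clusters), with adjustment after Benjamini and Hochberg and a threshold of 0.05. CPM are of the sums. A floor is 3 counts over the group. Shares of cells used cells thinned to 2000 UMIs with exact (Clopper-Pearson) 95% intervals. Library A and B of each class differed by more than sampling noise. The edgeR steps were tested on simulated counts. Genes were located with GENCODE M21 on GRCm38, and promoters came from RefSeq (GRCm38.p6).

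Members were given by library where they reached 20 CPM in a class or pair with such a member. Members with 10 or more UMIs were otherwise given by name. Of the 34 chemokine pathway genes and 29 inflammatory signalling genes, up to 3 in each direction that passed and reached 20 CPM were named. A few others were named after their values were seen, and 1 member is counted in the totals but not reported here. The members, lists and tests were chosen with earlier results of these data known. Other settings tried were no replicate block, DESeq2 1.42.0, all genes without a filter, a mitochondrial limit of 5%, at least 1000 genes, no gene held out, resolution 0.1 and 0.5, removal of the top 5% of Scrublet scores, thinning to 1000 UMIs or none, each library left out, and 2 removals of cells by marker UMIs chosen after seeing the data.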

Additional observations from a re-analysis of the deposited data

Results flagged for a closer look

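The barcodes that the cell filters removed, which no comparison used, held 191 member UMIs in library A and 152 in library B, above the limit of 3 that a count of 0 allows. There were 109 such barcodes in each library, and the members made up 243 and 234 CPM of their UMIs, against 273 and 304 CPM in the kept cells of A and B.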

How the results depend on the processing

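Under other settings, calls between classes were repeated for members at 20 CPM or more in a class, and glial calls for cluster 1. Where the member was still tested, 588 calls kept their direction and side of the threshold, 16 were lost and 1 turned direction. The last was Ccl11 in macrophages against glia, at -4.86 (adjusted p = 0.701) without the highest Scrublet scores. Other calls were not followed one by one. DESeq2 accounted for 6 of the 16, a mitochondrial limit of 5% for 4. The number of members lower in fibroblasts than in glia was 1 at resolution 0.5, and the number lower in macrophages than in glia was 1 under DESeq2, under the 5% limit and without the highest Scrublet scores. Under the 5% limit, 3 members were higher in neurons than in glia, 4 passed in at least 1 glial cluster, and 3 were higher and 0 lower in cluster 1 (edgeR). The cause of these shifts was not tested. Fewer cells and genes entered under the 5% limit and without the highest Scrublet scores.

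With no replicate block, that is without pairing the classes of a library, 11 members were higher and 2 lower in fibroblasts against glia, 14 and 2 in macrophages, 6 and 11 in neurons, 12 and 4 in macrophages against fibroblasts, and 9 and 3 in cluster 1.

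With 1 library left out, which leaves no test, the median log2(CPM + 1) difference of the members ran from 0.00 to 0.08 in fibroblasts, 1.74 to 1.96 in macrophages and -0.24 to -0.12 in neurons against glia, 0.98 to 1.70 in macrophages against fibroblasts and 0.87 to 1.24 in cluster 1. The share of cells with a UMI ran from 42.1 to 48.6% for Ccl11 and 14.6 to 15.8% for Ccl2 in fibroblasts, 4.85 to 5.10% for Ccl2, 9.14 to 9.62% for Cxcl10 and 9.23 to 9.63% for Cxcl14 in glia, and 10.6 to 11.6% for Ackr1 in neurons. These shares follow the depth: thinned to 1000 UMIs they were 33.6, 8.52, 3.25, 5.70, 5.32 and 5.07%, and without thinning 62.2, 33.3, 8.88, 17.6, 16.7 and 63.9%. Under the 5% limit the last 5 were 17.1, 6.29, 11.3, 8.27 and 16.2%.

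Macrophages had 83 cells, so members with few UMIs there were weakly measured, and neither free RNA nor doublets were removed.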

Other observations

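A few members with low counts stood outside the comparisons. Ccl28, a chemokine of mucosal epithelia, had 27 UMIs, 12 in neurons and 15 in glia. Ccl17, which attracts T cells, had 10 UMIs, 5 in fibroblasts and 5 in glia, and Ackr2, an atypical receptor that clears inflammatory CC chemokines, had 11 UMIs, 7 of them in neurons. The 11 members with 1 to 9 UMIs made up 26 UMIs together, 0.116% of all member UMIs.

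The neuron clusters differed in Ccl27a, with nearly the opposite order from Ackr1. Ccl27a was 37.6 and 35.9 CPM in the cluster led by Scg2 and Calca and 35.2 and 41.9 CPM in the one led by Dgkh, against 30.6 and 28.7 CPM in the one led by Mustn1 and Nts and 20.9 and 16.0 CPM in the one led by Penk and Crh. Ackr1 was 53.9 and 44.3 CPM and 25.0 and 18.6 CPM in the first pair of clusters, against 86.2 and 84.6 CPM and 114 and 110 CPM in the other pair. These differences were not tested.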
